A study of Mus musculus with 2 samples.

Results

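The miR-130 and miR-301 family is a group of microRNAs (miRNAs, small RNAs that pair with messenger RNAs through their seed and repress them). Its 4 array entries, mmu-miR-130a, mmu-miR-130b, mmu-miR-301a and mmu-miR-301b (hereafter without the mouse prefix mmu), were chosen by name from the 567 mouse miRNAs on the array, and they were read by 10 probes in 80 spots per array. The RNA came from vesicles that 3T3-L1 adipocytes shed into their medium. The line, of mouse preadipocytes, turns fat-laden under hormones. Both preparations came from cells kept in high-glucose DMEM with 10% FCS and induced by dexamethasone (0.25 µM), 3-isobutyl-1-methylxanthine (0.5 mM) and insulin (10 µg/ml). Medium conditioned for 48 h was collected from day 2 to 4, an early window, and from day 8 to 10, a late one, and 1 array was hybridised for each window. The material is 1 cell line in culture, and serum miRNA is not separated from vesicle miRNA of the cells.

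Pparg encodes the nuclear receptor that drives fat cell differentiation. The miR-130 members are known to bind its messenger RNA and to restrain adipogenesis, and miR-27a and miR-27b, from another family, are known to repress it as well. miR-301a and miR-301b carry the same seed as the miR-130 members and are better known from inflammation and cancer. Pparg messenger RNA and protein were not measured here, so what follows describes the miRNAs alone.

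The mature sequences show what the entries share and where they part. Names were matched to RefSeq mature miRNAs (GRCm38.p6), and 12 of 13 names sought were found, all but miR-301b. The miRNAs with the family's seed, bases 2 to 8 in capitals, are shown first because the seed defines the group.
miR-130a-3p: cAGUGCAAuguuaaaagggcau
miR-130b-3p: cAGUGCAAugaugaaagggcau
miR-301a-3p: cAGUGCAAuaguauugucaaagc
miR-721: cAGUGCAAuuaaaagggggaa

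The miR-27 pair, the other known repressors of Pparg, has a different seed (capitals again).
miR-27a-3p: uUCACAGUggcuaaguuccgc
miR-27b-3p: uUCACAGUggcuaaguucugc

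Seeds that overlap the family's run by a shift of 1 base are carried by the miR-19 miRNAs and by miR-148a, miR-148b and miR-152, shown by 1 example each.
miR-19a-3p: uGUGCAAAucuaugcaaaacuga
miR-148a-3p: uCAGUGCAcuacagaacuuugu

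With both sequences lined up from the 5′ end, miR-130a and miR-130b were identical at 20 of 22 bases, first differed at base 11 and ended in the same 9 bases. miR-130a and miR-301a were identical at 12 of 22 bases, and none of the differences lay in bases 1 to 8. miR-721 matched miR-130a at 15 of 21 bases, and after base 8 both hold the run uuaaaaggg. miR-27a and miR-27b were identical at 20 of 21 bases. Of the 7 RefSeq mature miRNAs with the seed AGUGCAA, the array holds miR-130a, miR-130b, miR-301a and miR-721 by name. The array has no mouse entry named miR-130c, miR-6341 or miR-6389, nor any named miR-454.

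The members come from 3 loci. In the files, the probes of miR-130a span chromosome 2 from 84581273 to 84581291, those of miR-301a chromosome 11 from 86926558 to 86926578, those of miR-130b chromosome 16 from 17124164 to 17124181 and those of miR-301b chromosome 16 from 17124513 to 17124532. Their genome build was not given in the sources used here. File positions of miR-130b and miR-301b begin 349 bases apart. By the RefSeq names table of GRCm38.p6, Mir130b and Mir301b are next to each other inside 2610318N02Rik. Mir301 lies inside Ska2, which encodes a subunit of the spindle and kinetochore complex, and Mir721 inside Cux1, a homeobox gene. Mir130a lies in no other gene of that table, between Ypel4 and Gm19426.

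The probes of an entry differ in how many positions they span and share the end that lies, by RefSeq strand, at the 3′ side of the miRNA. The spans were 18 and 19 positions for miR-130a, 17 and 18 for miR-130b, 20 and 21 for miR-301a, and 17 to 20 for the 4 probes of miR-301b. Probe sequences were not used here.

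miR-130a was far above background in both windows, with a late level above the early one that turned slightly below it under 1 other scaling. miR-301a passed the detection rule given here only in the late vesicles, with an early signal above most control spots on its longer probe. miR-130b and miR-301b passed it in neither window. Signals are processed intensities, the spot's brightness after subtraction of a background surface, and a spot counts as well above background by the scanner software's flag. A probe was called detected when more than 0.5 of its spots had that flag, and a miRNA when at least 1 of its probes was detected. By that rule 1 of the 4 members was detected at day 2-4, against 27.5% of all 567 mouse miRNAs, and 2 of the 4 at day 8-10, against 29.3%. With 4 members these shares say nothing particular about the family. Since each window has 1 array, no difference has a replicate check, and SDs and standard errors (SE) are over repeat spots of 1 array, a technical spread.

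The arrays shared a slide and a scan. The time window cannot be told apart from the vesicle preparation or the hybridisation. Among the mouse miRNAs, 145 were detected on both arrays, and no spot of a family member was saturated. Negative control spots averaged -0.211 ± 1.17 intensity units at day 2-4 (SD, n = 288 spots) and -0.195 ± 1.45 at day 8-10. All 5 adipocyte marker miRNAs (miR-103, miR-107, miR-143, miR-148a, miR-378) and all 3 fibroblast markers (miR-199a-5p, miR-199b, miR-214) were detected in both windows, against 25.6% of all 567 mouse miRNAs. These lists moved between the windows in opposite directions. Of the adipocyte markers 4 of 5 were higher at day 8-10, against 15.9% of all 145, and none lower by the 2-fold rule given with miR-130a. Their log2 differences ran from 0.77 to 1.90. The count higher was 3 after quantile normalization, against 14 of all 145. It was 2 with the percentile over all probes (10 of all 145) and 2 with normexp (5 of all 145). Of the fibroblast markers 2 of 3 were lower, against 7.59% of all 145, and none higher, with log2 differences from -1.63 to -0.95. The count lower was 1 with normexp (5 of all 145) and 3 with the percentile over all probes (29 of all 145). Summed over each list, the software's gene signal went from 346 to 928 intensity units for the adipocyte markers and from 1142 to 452 for the fibroblast markers. The part of these shifts in the values of the family was not tested. None of the 4 muscle, 1 liver, 2 neural and 2 endothelial markers was detected by the rule used here. The scanner software's own detection flag for a miRNA marked 1 muscle marker as detected on both arrays. Of the 5 blood and serum markers, 3 were detected at day 2-4 and 4 at day 8-10, none of them past the 2-fold rule, with a summed gene signal of 1003 and then 921 intensity units. In vesicle RNA, fewer vesicles from a cell and less miRNA per vesicle cannot be told apart, and equal masses of RNA (100 ng) were labelled.

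**Figure D1:**
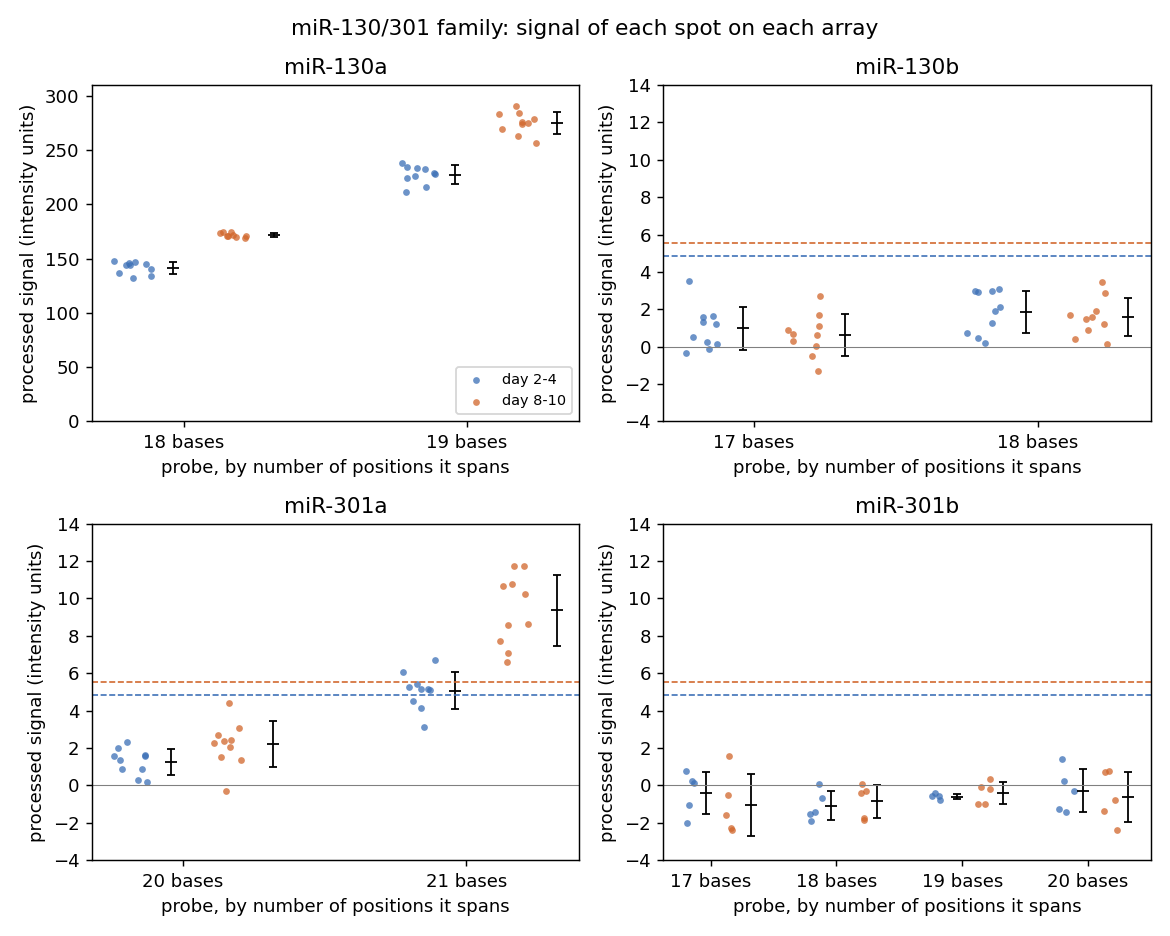
Processed signal of every spot (points; outlier spots left out) for the 4 family members, by probe and window, with mean and SD beside the points and, in 3 panels, dashed lines at the lowest mean of any detected probe on each array. Both miR-130a probes stand far above background with no overlap between windows, the 21-base probe of miR-301a has early spots on both sides of the early line and all late spots above the late one, and miR-130b and miR-301b stay below the lines.

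miR-130a, the member best known for acting on Pparg, was the family's one miRNA detected in both windows. Its 18-base probe read 142 ± 5.63 intensity units at day 2-4 (SD, n = 10 spots, range 132 to 147) and 172 ± 2.09 at day 8-10 (n = 9 spots, 169 to 175). Its 19-base probe read 227 ± 8.54 at day 2-4 (n = 10 spots, 211 to 239) and 275 ± 10.3 at day 8-10 (n = 10 spots, 256 to 291). On both probes every late spot lay above every early spot, and all spots used on both arrays were well above background. Spots of 1 array are not independent samples, so this separation concerns the 2 arrays and not the windows in general.

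To set the arrays side by side, each was divided by the 75th percentile of the 279 probes detected on both arrays (108 intensity units at day 2-4 and 95.2 at day 8-10) and log2 transformed. The log2 difference of miR-130a, day 8-10 minus day 2-4, was then 0.46 (spot SE 0.016), a 1.38-fold higher level at day 8-10, with 0.47 on one probe and 0.46 on the other. With the percentile taken over all probes the sign turned, to -0.046. Of the mouse spots 22.9% at day 2-4 and 24.3% at day 8-10 were well above background, so that percentile lay near the background level. That scaling moved the median over all 145 miRNAs detected on both arrays from 0.20 to -0.30. A change of divisor shifts every log2 difference equally, so miR-130a stood 0.26 above the median under either scaling by construction. It stood 0.73 above it after quantile normalization and 0.21 above it with normexp, a background correction that models signal and background together. As run here, normexp added an offset of 50 intensity units to every spot. Such an offset draws log2 differences toward 0, most for dim probes. miR-130a ranked in the upper part of the list, with 50 of the 145 miRNAs showing a larger difference and 94 a smaller one.

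The rule for a change asked for detection on both arrays, a difference of at least 2-fold and one of more than 2 spot SE. miR-130a was not counted, so 0 of the 4 members passed this rule, of which 1 could have. Among the 145 miRNAs that could, 23 were higher at day 8-10 (15.9%) and 11 lower (7.59%), 23.4% in all. With the percentile over all probes these counts were 10 and 29, without scaling 17 and 15, after quantile normalization 14 and 20, with normexp 5 and 5, and with the software's gene signal 19 and 18.

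**Figure D2:**
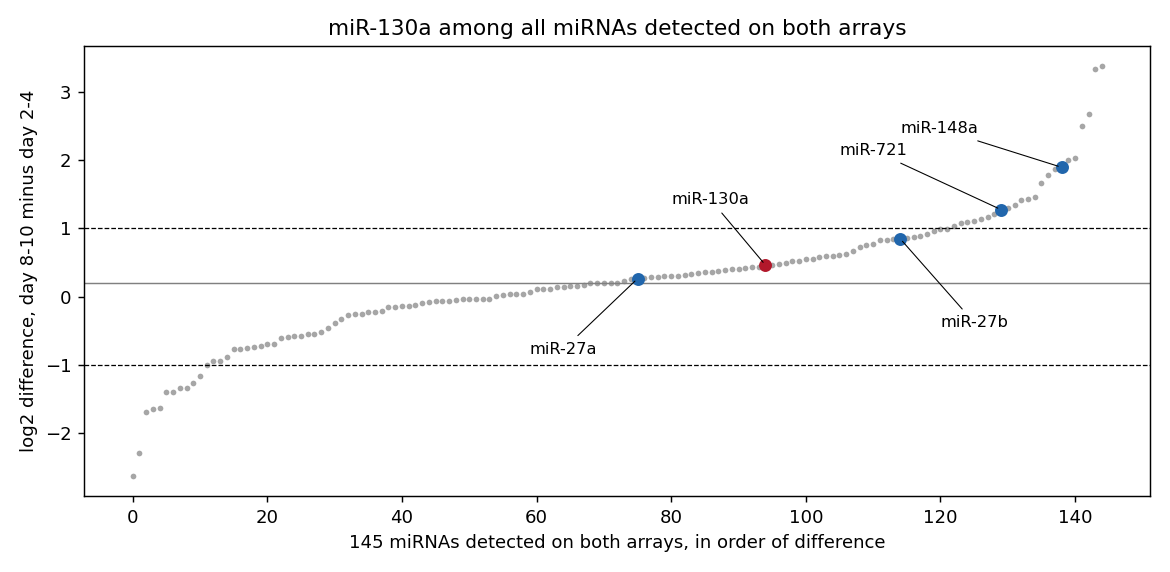
Log2 difference (day 8-10 minus day 2-4) of the 145 miRNAs detected on both arrays, in rising order, with dashed lines at 2-fold and a grey line at the median of 0.20. miR-130a (red), at 0.46, lies above the median and within the 2-fold lines, miR-27a and miR-27b lie within them too, and miR-721 and miR-148a lie above the upper line; with the percentile over all probes the values of miR-130a and miR-27a turn negative.

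The miRNAs whose difference lay nearest to that of miR-130a were miR-425 (log2 difference 0.47), miR-20b (0.44), miR-770-3p (0.49) and miR-874 (0.43). Likeness here is the distance between differences over 2 arrays, and many miRNAs have differences close to these.

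miR-301a, the member encoded within Ska2, lay close to background. Its 21-base probe read 5.06 ± 0.994 intensity units at day 2-4 (SD, n = 10 spots, 3.11 to 6.73), with 4 of 10 spots well above background, and 9.38 ± 1.90 at day 8-10 (n = 10 spots, 6.59 to 11.7), with 10 of 10. The highest early spot lay above the lowest late spot, so the spot ranges overlapped. Its 20-base probe read 1.27 ± 0.697 at day 2-4 (n = 10 spots) and 2.19 ± 1.23 at day 8-10 (n = 10 spots), and no spot of it was well above background on either array. Against the negative control spots, all 10 early and all 10 late spots of the 21-base probe lay above the 95th percentile (1.39 and 1.56 intensity units), while 0 early and 2 late spots lay above the highest control spot. The early signal was thus above most control spots and missed the majority rule for spots well above background.

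Because miR-301a was not well above background at day 2-4 by the rule used, its difference is a bound. Spots were set to no lower than the lowest mean of a detected probe on their array (4.86 intensity units at day 2-4 and 5.55 at day 8-10) before log2. On this scale the 21-base probe averaged -4.35 at day 2-4 and -3.37 at day 8-10, which makes miR-301a at least 1.97-fold higher in the late vesicles (log2 difference 0.98, spot SE 0.11). With that minimum set on the probe's mean and not on each spot, the log2 difference was 1.08, past 2-fold, as it was without a minimum (1.08) and with the median over spots (1.05). It was 0.47 with the percentile over all probes, 0.55 after quantile normalization and 0.21 with normexp, so the 1.97-fold bound is tied to the reported scaling and background. Being detected only at day 8-10 was shared by 21 of the 567 miRNAs (3.7%), while 11 were detected only at day 2-4. By such a bound, 8 of the 21 (38.1%) were at least 2-fold higher. The 21 were picked for passing detection on the late array alone, so a higher late value largely follows from the pick. The scanner software's own detection flag marked miR-301a as detected in both windows. The software's gene signal gave a log2 difference of 0.86, also under 2-fold.

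miR-130b, which differs from miR-130a at only a few bases, was not detected in either window. Its 17-base probe read 0.976 ± 1.14 intensity units at day 2-4 (SD, n = 10 spots, -0.314 to 3.51) and 0.622 ± 1.11 at day 8-10 (n = 10 spots, -1.33 to 2.69). Its 18-base probe read 1.87 ± 1.14 at day 2-4 (n = 10 spots, 0.210 to 3.11) and 1.57 ± 1.02 at day 8-10 (n = 10 spots, 0.147 to 3.46). The windows overlapped on both probes, and none of the 20 spots on either array was well above background. Against the negative control spots, 9 of 20 at day 2-4 and 7 of 20 at day 8-10 lay above the 95th percentile of the control spots (1.39 and 1.56 intensity units), and none lay above the highest control spot. The spots therefore give no usable difference for miR-130b. No miR-130b spot was well above background on arrays where every miR-130a spot was, although both miRNAs end in the same bases.

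The passenger arm of miR-130b, the strand of the hairpin that is usually discarded, was at background as well. Its 4 probes gave spots from -2.38 to 2.70 intensity units at day 2-4 and from -1.81 to 1.11 at day 8-10 (20 spots each), with none well above background.

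miR-301b, the neighbour of miR-130b, read at background throughout. Over its 4 probes the spots ran from -1.997 to 1.39 intensity units at day 2-4 (19 spots after 1 outlier was left out) and from -2.38 to 1.58 at day 8-10 (20 spots). Each of its probe means was below 0 in both windows, from -1.09 to -0.276 at day 2-4 and from -1.04 to -0.386 at day 8-10. No spot was well above background, and 0 of 19 early and 1 of 20 late spots exceeded the 95th percentile of the negative controls. Both members of the chromosome 16 pair were thus undetected, as were 68.8% of all mouse miRNAs on both arrays.

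miR-721, which has the family's seed but a different name, was the one same-seed entry that passed the 2-fold rule. Its 12-base probe read 31.0 ± 2.30 intensity units at day 2-4 (SD, n = 5 spots, 27.2 to 33.3) and 64.1 ± 1.28 at day 8-10 (n = 5 spots, 62.3 to 65.9). Its 13-base probe read 26.1 ± 1.29 and then 56.0 ± 3.71 (n = 5 spots each). Its 14-base probe read 30.8 ± 3.56 and then 63.8 ± 2.46 (n = 5 spots each), and its 15-base probe 29.8 ± 1.64 and then 66.0 ± 3.27 (n = 5 spots each). All 20 late spots lay above all 20 early spots.

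After scaling, the late level of miR-721 was 2.42 times the early one (log2 difference 1.28, spot SE 0.029), with its 4 probes between 1.24 and 1.33. It fell below 2-fold with the percentile over all probes (0.77), after quantile normalization (0.82) and with normexp (0.60), and kept its direction under the settings tried. Relative to the median of all miRNAs its difference was 1.07, and 0.48 with normexp. Its probes span 12 to 15 positions, fewer than those of the family members, and the files place them on chromosome 5 from 136851647 to 136851661. Whether miR-130a and miR-721, which share the run shown above, bind each other's probes was not tested. Across the 5 entries listed as same-seed (miR-301b by its family name), 2 were detected on both arrays, against 25.6% of all 567, and 1 of these was higher, against 15.9% of all 145, with a median log2 difference of 0.87 against 0.20 for all 145. The median rests on miR-130a and miR-721 only.

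**Figure D3:**
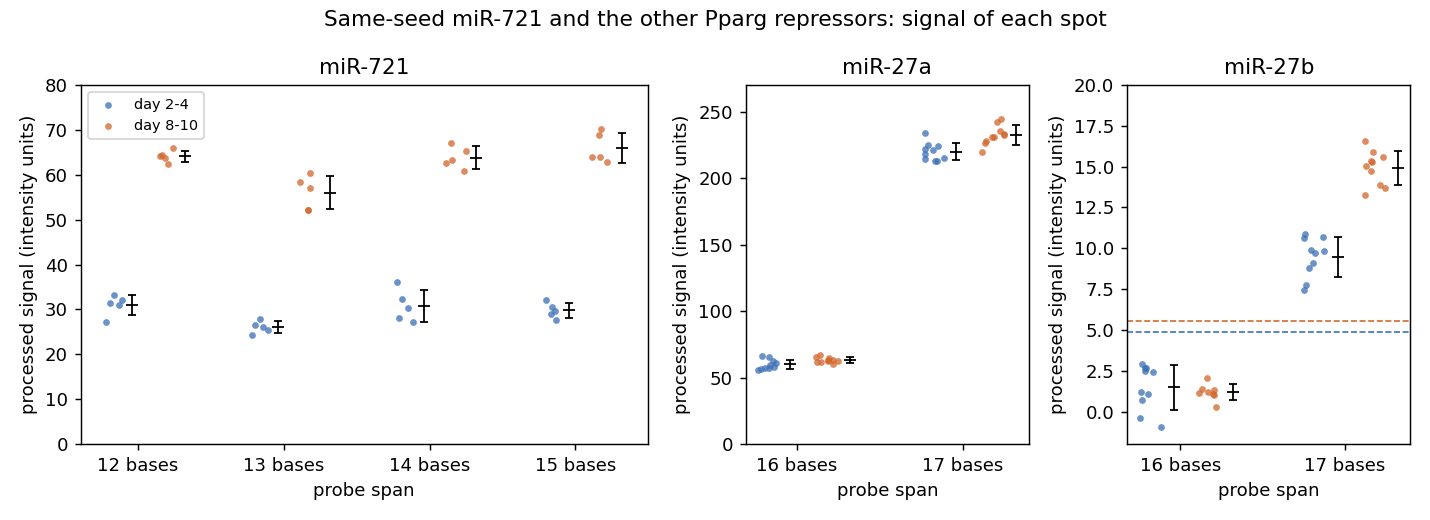
Processed signal of every spot (points; outlier spots left out) of miR-721, miR-27a and miR-27b by probe and window, with mean and SD beside the points; axes differ between panels, and dashed lines in the right panel mark the lowest mean of any detected probe on each array. The windows of miR-721 do not overlap on any of its 4 probes, those of miR-27a overlap, and miR-27b rises above the lines on its 17-base probe alone.

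Of the 4 miRNAs listed as repressors of Pparg (miR-27a, miR-27b, miR-130a, miR-130b), 3 were detected on both arrays, against 25.6% of all 567. None of the 3 passed the 2-fold rule, against 23.4% of all 145. With 3 miRNAs these shares say nothing particular about the repressors. The median log2 difference of the 3 was 0.46, against 0.20 for all 145. It turned to -0.046 against -0.30 with the percentile over all probes. miR-27a, encoded between Mir23a and Mir24-2, read 220 ± 6.56 intensity units at day 2-4 and 232 ± 7.22 at day 8-10 on its 17-base probe, and 60.0 ± 3.66 and 63.3 ± 1.92 on its 16-base probe (SD, n = 10 spots each). The spot ranges of the windows overlapped on both probes. The log2 difference was 0.26 (spot SE 0.018) and turned to -0.24 with the percentile over all probes.

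miR-27b, which differs from miR-27a at a single base, read 9.47 ± 1.20 intensity units at day 2-4 (SD, n = 10 spots, 7.43 to 10.9) and 14.9 ± 1.05 at day 8-10 (n = 10 spots, 13.2 to 16.6) on its 17-base probe, with no overlap. No spot of its 16-base probe was well above background. The log2 difference from the detected probe was 0.85 (spot SE 0.069), a 1.80-fold higher level at day 8-10. It was 0.34 with the percentile over all probes, 0.48 after quantile normalization and 0.26 with normexp. With the software's gene signal it was 0.54, and with both probes entered 0.61. Whether miR-27a, which is brighter and differs at a single base, binds the probes of miR-27b was not tested.

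Of the 5 miRNAs with a shifted seed, 4 were detected on both arrays, against 25.6% of all 567, and 1 of these was higher, against 15.9% of all 145. Their median log2 difference was 0.72, against 0.20 for all 145, and 0.21 against -0.30 with the percentile over all probes. miR-148a, also on the adipocyte marker list, had a late level 3.72 times the early one (log2 difference 1.90, spot SE 0.014). The other 3 lay within 2-fold: miR-148b had a log2 difference of 0.83, miR-19b of 0.62 and miR-152 of 0.59. With the percentile over all probes miR-19b had 0.11 and miR-152 0.086. miR-19a, detected only at day 8-10 by the majority rule and in both windows by the software's flag, was at least 1.80-fold higher under the reported scaling (log2 difference 0.85). That difference was 0.34 with the percentile over all probes, 0.40 after quantile normalization and 0.20 with normexp. These miRNAs were not chosen at random, and nothing particular to the seed can be read from them.

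**Figure D4:**
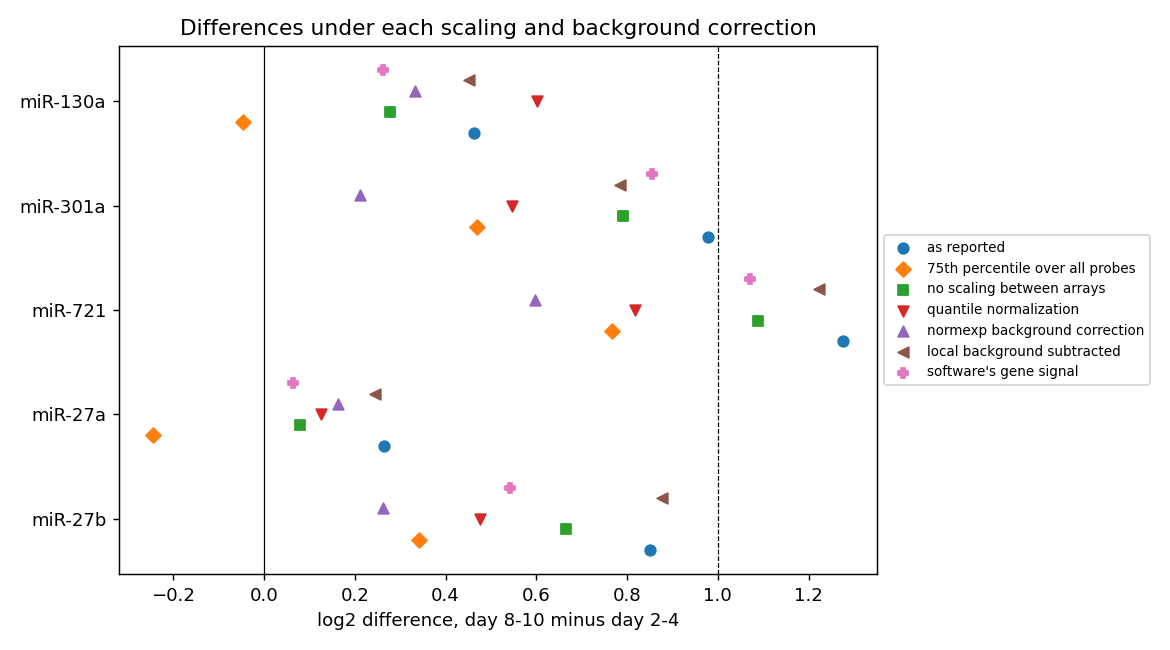
Log2 difference (day 8-10 minus day 2-4) of 5 miRNAs under the reported setting and 6 other scalings or background corrections, with a solid line at 0 and a dashed line at 2-fold. miR-130a spans -0.046 to 0.60 and turns negative with the percentile over all probes, as miR-27a does, while miR-301a, miR-721 and miR-27b stay above 0 under the settings plotted.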

How the data were processed

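Per the labels' protocols, RNA of ultracentrifuged vesicles was extracted with Trizol and 100 ng per sample was labelled with Cy3. The authors deposited spot intensity values on a linear scale. The file headers name Feature Extraction 9.5.3.1 from Agilent, with a fitted background surface subtracted and no normalization between arrays. The deposited series table equalled these values for 12493 of 12493 spots on each array (medians 0.516 and 0.646). Control spots and outlier spots (237 and 249 among mouse spots) were left out. Scaling, minimum and log2 followed the steps described with the results; values were averaged over spots, then over the probes detected on at least 1 array. Spots well above background made up 22.9% and 24.3%, and 1 array per window limits the precision. Alternatives were other scalings, normexp (offset 50, limma 3.58.1, R 4.3.3), other minimum, spot, probe and detection rules, and the software's gene signal. The minimum on the probe mean, local background subtraction and the counts under the software's flag were chosen after seeing the data. The calculation was tested on simulated data. Members, lists and named miRNAs (members, same-seed and shifted-seed entries, Pparg repressors, passenger arms, the 4 nearest differences) were chosen with earlier results of these data known. Software was Python 3.11.15 with pandas 2.3.3.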

Additional observations from a re-analysis of the deposited data

How the results depend on the processing

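No paired analysis was possible because each window has 1 array. The log2 difference of miR-130a was -0.046 with the percentile over all probes, 0.28 without scaling, 0.60 after quantile normalization, 0.33 with normexp and 0.26 with the software's gene signal. Under the same settings in that order, the same-seed median was 0.36, 0.68, 0.71, 0.47 and 0.67. The Pparg-repressor median was -0.046, 0.28, 0.48, 0.26 and 0.26. The percentile over all probes lay near the background level, as described with miR-130a. For miR-301a the log2 difference was 0.47 with the percentile over all probes, 0.55 after quantile normalization and 0.21 with normexp, and no value could be had from probes detected on both arrays, since it has none. miR-301a was detected on 2 arrays, not 1, where a single spot well above background sufficed and by the software's flag. The number of miRNAs past the 2-fold rule was 10 with normexp, whose offset draws differences toward 0, against 34. The count of family members past it was 0 under every alternative run. The rule asks for detection on both arrays. Among the runs that gave this count, miR-130b and miR-301b met that in none and miR-301a only under the software's flag. Keeping outlier spots, taking medians over spots or leaving out the minimum moved no family value by more than its spot SD. Where all probes of a miRNA enter, undetected probes sit at the 2 arrays' minimum values, whose own log2 difference is 0.38. For miR-130b and miR-301b, signals within the range of the control spots gave no usable difference.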

Other observations

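Detection by the longer probe alone, as for miR-301a and miR-27b, was common on these arrays. Of the miRNAs with 2 probes of different span and exactly 1 of them detected, the longer probe was the detected one for 31 of 31 at day 2-4 and for 32 of 33 at day 8-10. The passenger arms of miR-27a, miR-27b, miR-19a and miR-148a were detected in neither window.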
